A study of Homo sapiens with 6 samples.

Results

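A set of 60 genes that drive cells through G2 phase and mitosis was compared between HCT116 cells of wild type (WT) and HCT116 cells in which METTL3 was knocked out (METTL3-KO). HCT116 is a human colorectal carcinoma line, and METTL3 is the methyltransferase that writes N6-methyladenosine (m6A) on mRNA. The members were chosen by symbol, as the 60 rows of the 56638 in the deposited count tables that carry these names. The rule reads names and no measured value, but the list was drawn up with earlier results of these data known. All 60 were present and all 60 passed the filter on low counts, with 179 to 14711 read pairs per gene and sample. The study holds 6 RNA-seq libraries, 3 per genotype, from cells at passage 16 to 19. According to the study's methods, METTL3-knockout HCT116 cells were a monoclonal line made with a lentiviral CRISPR/Cas9 vector and puromycin, so the knockout libraries would represent a single clone. The deposited tables are named with other group tags than the sample titles, and the tag on the knockout tables does not name a knockout and could also be read as a knockdown. The replicate numbers on the WT tables also differ in part from those in the titles. Groups here follow the titles and genotype labels, and replicate numbers follow the titles. METTL3-KO stands for the libraries so labelled. The labels do not say whether replicates were separate cultures, so p-values measure the spread between these libraries, which may be technical.

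Entry into mitosis is set by CDK1 bound to A- and B-type cyclins. WEE1 and PKMYT1 hold this kinase inactive, and CDC25 phosphatases release it. The kinetochore then links chromosomes to the spindle, the spindle checkpoint delays anaphase until every chromosome is attached, and the anaphase-promoting complex destroys cyclin B and securin. The midzone and the contractile ring complete cytokinesis. Most of these genes are transcribed late in the cell cycle, from promoters that bind MYBL2 and FOXM1 through the MuvB complex.

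METTL3 itself held 841, 682 and 623 counts in WT against 219, 169 and 162 in METTL3-KO samples. This was a log2 fold change of -2.04 (SE 0.0906, edgeR adjusted p = 1.59e-07) and 24.3% of the WT level in CPM (a gene's counts scaled by the library's total after TMM normalization), and all METTL3-KO samples lay below all WT samples. METTL3 reads thus remained in every library labelled METTL3-KO, and RNA level alone does not show whether the gene was edited. For its knockout cells, the paper reports other evidence. Sequencing found an insertion that makes a premature stop, the protein was checked by Western blot, and m6A in poly(A) RNA was lower. The samples held 20936091 to 30142144 counts on genes. All 8 markers of colon epithelium were expressed, and their summed level was 6128 to 7396 CPM in WT and 9028 to 9779 CPM in METTL3-KO samples. Of the markers of other cells, the 4 endothelial genes did not exceed 4 counts. Among 7 fibroblast genes, COL1A2, COL3A1, DCN and PDGFRB did not exceed 4 counts, and the summed level of the list was 5.54 to 7.13 CPM in WT and 9.46 to 10.0 CPM in METTL3-KO samples. The leukocyte genes PTPRC and CD3E did not exceed 2 counts. The sum of the 5 leukocyte markers, 1032 to 1041 CPM in WT and 664 to 744 CPM in METTL3-KO samples, was almost entirely LYZ (15643 to 28335 counts). The part of these marker levels in the results was not tested. Replicate 3 of each group stood apart from replicates 1 and 2, since a chi-square of its counts, divided by the number of genes, was 23.1 and 23.0 (WT) and 11.2 and 8.32 (METTL3-KO). Between replicates 1 and 2 the same value was 2.58 for WT and 2.34 for METTL3-KO.

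The mitotic genes were lower in METTL3-KO cells as a group. With the quasi-likelihood test of edgeR, Benjamini-Hochberg adjusted over all 22452 tested genes, 37 of the 60 members fell and 0 rose (threshold 0.05). Among all tested genes 13.2% were called lower and 13.3% higher, 26.5% in either direction. Among the 9539 tested genes at least as abundant as the lowest member, 20.5% were called lower. At an unadjusted p under 0.05, 46 members were lower and 0 higher, against 19.1% and 18.4% of all tested genes. DESeq2 called 39 members lower and 0 higher, against 14.9% of its genes lower. With the replicate number as a block, 30 members were lower, against 7.66% of all genes. Whether these numbers pair the samples is not known. The fitted log2 fold change was below 0 in 58 members, with a median of -0.43 over the 60, while the median of all tested genes was -0.02. The groups were separate in CPM, with METTL3-KO on the lower side, in 45 members and on the higher side in 0, against 20.7% and 20.2% of all tested genes. In bulk RNA, fewer cells in G2 and mitosis cannot be told apart from less of each mRNA per cell. With both replicate 3 samples left out, 45 members were lower and the median was -0.33, against 22.7% of all genes called lower in that fit. It keeps only replicates 1 and 2 of each group, which lay close together. A gene can therefore pass in it with a smaller change than with all samples.

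**Figure D1:**
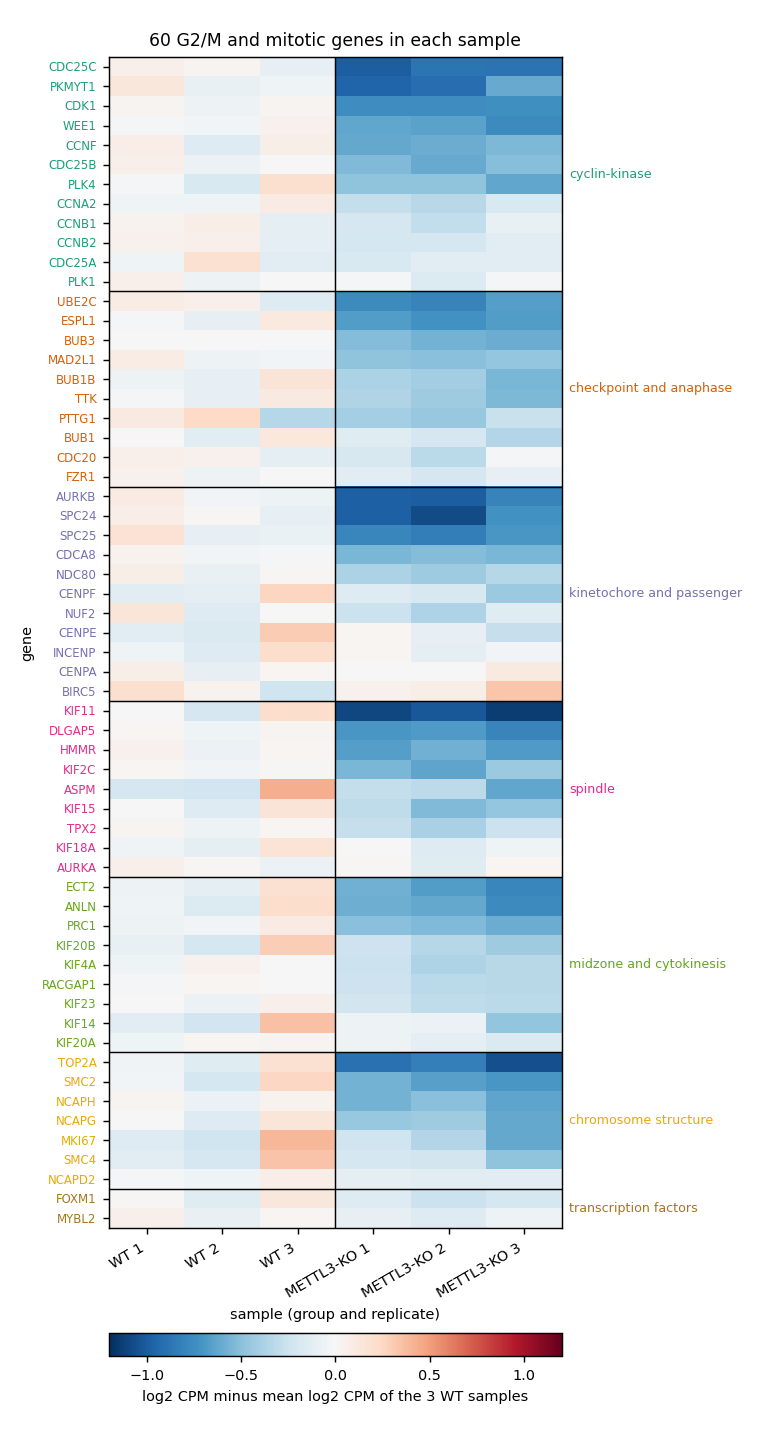
Each row is 1 of the 60 genes and each column 1 sample; colour is log2 CPM minus the gene's mean log2 CPM over the 3 WT samples, blue for lower. The METTL3-KO columns are blue in most rows and near the WT mean for PLK1, AURKA, KIF18A, INCENP, CENPA and MYBL2. BIRC5 lies above its WT mean in every METTL3-KO sample. Some long genes such as MKI67 and ASPM are red in WT 3.

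The summed level of all 60 members was 5893 to 6767 CPM in the WT samples and 4574 to 4845 CPM in the METTL3-KO samples, without overlap. The fall was uneven between genes. It ran from a log2 fold change of -1.09 for KIF11 to 0.14 for BIRC5, and 24 of the called members had one below -0.5. Per kilobase of exon in WT cells, the ubiquitin-conjugating enzyme gene UBE2C was the most abundant member at 99.0 CPM per kb, followed by TPX2 at 89.2 and TOP2A at 80.6. CDC25A was the least abundant, at 3.42 CPM per kb. Across the 60 genes, Spearman's rho of the log2 fold change was 0.04 with this WT level, -0.01 with transcript length and 0.17 with GC content, as a description over genes of the same 6 libraries.

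Promoters of late cell-cycle genes are known for the cell cycle genes homology region (CHR), a site bound by MuvB, and for CCAAT boxes bound by NF-Y. RefSeq promoter windows, 250 bases before to 50 after a start on GRCh38.p14, were found for 50 members in 65 windows. The CHR was searched as TTTGAA and TTCGAA, and the CCAAT box as CCAAT, on both strands, and matches may overlap by a base or more. A CHR match was present in 39 of these 50 genes, in 64.6% of their windows and in 16.4% of all 35116 promoter windows. A CCAAT box was in 66.2% of member windows and 34.6% of all windows, and both motifs were in 47.7% and 6.38%. The E2F words TTTCGCGC or TTTGGCGC were in 6.15% and 1.15%. The 57 CHR matches, counted in each window, had a median position of -29 from the start. A CHR match was in 24 of 30 genes that fell and in 15 of 20 that did not pass. Both motifs were together in 17 of the 30 and 12 of the 20. The difference between these classes was not tested.

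The stretches below show this shared promoter form in 4 members that fell (KIF11, TOP2A, CDC25C and CDK1) and in 4 that did not pass (PLK1, KIF18A, INCENP and CENPA). Each is 80 bases from the RefSeq window, 5′ to 3′ on the strand of the gene, with CHR and CCAAT matches of either strand in capitals.
KIF11: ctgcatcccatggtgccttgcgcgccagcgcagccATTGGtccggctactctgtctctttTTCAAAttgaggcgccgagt
TOP2A: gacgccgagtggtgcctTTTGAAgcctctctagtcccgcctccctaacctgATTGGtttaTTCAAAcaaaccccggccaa
CDC25C: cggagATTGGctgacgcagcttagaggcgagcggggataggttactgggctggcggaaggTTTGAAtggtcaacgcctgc
CDK1: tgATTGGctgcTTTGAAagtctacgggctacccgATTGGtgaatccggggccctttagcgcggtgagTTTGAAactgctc
PLK1: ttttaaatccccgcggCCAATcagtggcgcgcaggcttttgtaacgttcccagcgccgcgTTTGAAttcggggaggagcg
KIF18A: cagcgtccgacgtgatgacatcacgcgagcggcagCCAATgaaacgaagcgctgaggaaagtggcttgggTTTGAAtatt
INCENP: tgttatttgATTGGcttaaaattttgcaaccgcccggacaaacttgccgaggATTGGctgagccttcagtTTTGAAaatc
CENPA: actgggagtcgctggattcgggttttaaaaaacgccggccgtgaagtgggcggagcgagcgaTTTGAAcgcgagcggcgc

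On GRCh38.p14 the KIF11 stretch is chr10:92593042-92593121 on the plus strand, that of TOP2A chr17:40418028-40418107 on the minus strand, and that of CDC25C chr5:138331815-138331894 on the minus strand. That of CDK1 is chr10:60778398-60778477 on the plus strand. For PLK1 it is chr16:23678800-23678879 on the plus strand, for KIF18A chr11:28108157-28108236 on the minus strand, for INCENP chr11:62123931-62124010 on the plus strand and for CENPA chr2:26785976-26786055 on the plus strand. All lie upstream of an annotated start, outside the transcript that begins there. CDK1 and CDC25C each have a further window, with a start that lies further upstream. The CDK1 stretch lies after that start, and the CHR of the CDC25C stretch begins at position 44 from it. In 7 of the 8 a CCAAT box lies within the same stretch, and CENPA has the CHR alone there. A match describes the letters of the window and is not a measured binding site. Windows of CCNA2, CCNB1, CDC25A, PTTG1, CENPE, SPC24, AURKB, KIF2C, KIF20A, NCAPH and MYBL2 held no CHR match as spelled here. WEE1, PKMYT1, BUB3, TTK, UBE2C, BIRC5, AURKA, TPX2, RACGAP1 and FOXM1 had no window in the table.

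In the cyclin and kinase step, 8 of 12 genes fell and the median log2 fold change was -0.54. For this and the later steps, the share called lower was 13.2% of all tested genes. It was 20.5% of those at least as abundant as the lowest member. CDC25C, the phosphatase that activates CDK1 at mitotic entry, lies on chromosome 5 of GRCh37 from 137620958 to 137674044. It held 1021, 827 and 711 counts in WT and 543, 426 and 455 in METTL3-KO samples. Its level was 35.7 ± 2.07 CPM in WT and 18.9 ± 0.781 CPM in METTL3-KO (means with SD, n = 3 each), a log2 fold change of -0.92 ± 0.0840 (SE) with edgeR adjusted p = 1.42e-05. PKMYT1, the membrane-bound kinase that inhibits CDK1, held 666, 470 and 455 counts against 341, 257 and 341. It fell to a log2 ratio of -0.83 ± 0.114 (SE) with edgeR adjusted p = 0.000238. CDK1 held 2627, 2033 and 2040 counts in WT and 1683, 1228 and 1320 in METTL3-KO samples, 59.7% of the WT level in CPM. So the kinase, an activator and an inhibitor were all lower, and none of them overlapped between groups.

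The nuclear CDK1 inhibitor WEE1 fell by 0.68 on the log2 scale (SE 0.0748), and CDC25B, which acts early at the centrosome, fell by 0.55 (SE 0.0709). CCNF, the F-box protein cyclin F, fell by 0.59 (SE 0.0843), and PLK4, the kinase of centriole duplication, fell by 0.53 (SE 0.0993). CCNA2, cyclin A2, was at 78.9 ± 4.75 CPM in WT and 65.7 ± 3.52 CPM in METTL3-KO cells (n = 3 each), which left 83.2% of the WT level (edgeR adjusted p = 0.0246). It did not pass without METTL3-KO replicate 1 or 2. CCNB1 (158 ± 11.2 against 138 ± 10.1 CPM, n = 3 each) and CCNB2 (127 ± 8.18 against 111 ± 4.09 CPM), the B-type cyclins, did not pass. Without both replicate 3 samples CCNB1 had a log2 fold change of -0.31 and CCNB2 of -0.27, and both then passed.

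PLK1, the polo-like kinase that acts from mitotic entry to cytokinesis, had the smallest change of the step. It held 3646, 2764 and 2726 counts in WT and 3774, 2509 and 2954 in METTL3-KO samples, and the groups overlapped in CPM (log2 fold change -0.07, SE 0.0730). CDC25A, which acts at the start of S phase as well, had a log2 fold change of -0.16 (SE 0.104) and did not pass. Within each library, the level of CDK1 relative to CCNB1 was 0.540 to 0.658 in WT and 0.378 to 0.436 in METTL3-KO samples, a ratio of CPM values. CDC25C relative to CCNB1 was 0.220 to 0.229 in WT and 0.130 to 0.151 in METTL3-KO samples. The kinase and its phosphatase were thus lower in proportion to cyclin B1 mRNA, without overlap of the groups. These and the further ratios were chosen after the values were seen and were given no test.

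**Figure D2:**
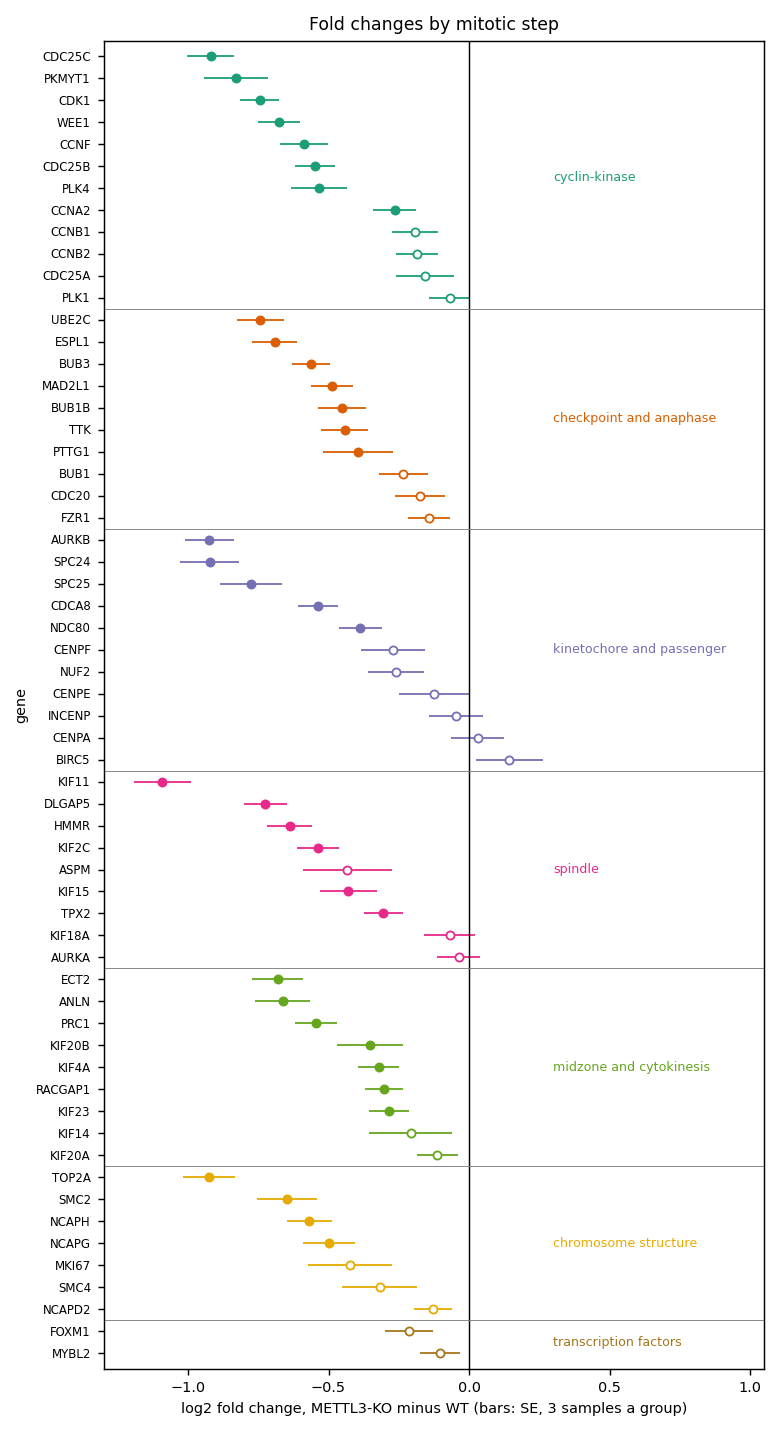
Points are log2 fold changes, METTL3-KO minus WT, with standard errors as bars, grouped by step and ordered within it; filled points passed at an adjusted p under 0.05 and open points did not. Filled points run from KIF11 at -1.09 to CCNA2 at -0.26, and no filled point lies above 0.

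Among genes of the spindle checkpoint and anaphase, 7 of 10 fell, with a median log2 fold change of -0.45. UBE2C, the enzyme that starts ubiquitin chains for the anaphase-promoting complex, held 3707, 3002 and 2436 counts in WT and 2256, 1606 and 1890 in METTL3-KO samples. It fell from 127 ± 11.4 to 76.1 ± 3.81 CPM (n = 3 each), a log2 fold change of -0.74 ± 0.0835 (SE) with edgeR adjusted p = 6.05e-05. ESPL1, the protease separase that cuts cohesin, held 2022, 1579 and 1734 counts against 1417, 994 and 1103, a log2 fold change of -0.69 ± 0.0790 (SE) with edgeR adjusted p = 6.77e-05. Both genes act on sister separation, and neither overlapped between the groups. BUB3, a checkpoint protein bound at kinetochores, held 4770, 3943 and 3711 counts in WT and 3647, 2582 and 2707 in METTL3-KO samples, a fall of 0.56 on the log2 scale (SE 0.0660).

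The checkpoint proteins MAD2L1, BUB1B and TTK fell by 0.49, 0.45 and 0.44 on the log2 scale. PTTG1, the securin that inhibits separase, had a log2 fold change of -0.40 ± 0.124 (SE) with edgeR adjusted p = 0.0335, but its groups overlapped. It was at 107 ± 21.1 CPM (WT) and 81.2 ± 5.44 CPM (METTL3-KO), and it did not pass in 4 of the 6 fits that left out 1 sample. PTTG1 has near-identical copies in the genome, so its count is uncertain. BUB1 (log2 fold change -0.23, SE 0.0884), CDC20 (-0.17, SE 0.0901) and FZR1 (-0.14, SE 0.0756) did not pass. CDC20 was at -0.31 and FZR1 at -0.16 without both replicate 3 samples, and both then passed, while BUB1 was at -0.11 and did not. CDC20 also passed without WT replicate 3 alone. CDC20 and FZR1 are the activators of the anaphase-promoting complex. FZR1 held 1255, 957 and 947 counts in WT and 1219, 841 and 972 in METTL3-KO samples, and its groups did not overlap in CPM. UBE2C relative to CDC20 was 1.06 to 1.11 in WT and 0.696 to 0.781 in METTL3-KO samples, as a ratio of CPM.

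In the kinetochore and passenger step 5 of 11 genes fell, and the median log2 fold change was -0.27. The chromosomal passenger complex, which corrects faulty attachments, has 4 subunits among these genes. AURKB, its kinase, held 1394, 1048 and 973 counts in WT and 726, 526 and 642 in METTL3-KO samples. It fell from 47.6 ± 2.79 to 25.1 ± 1.90 CPM (n = 3 each), a log2 fold change of -0.92 ± 0.0861 (SE) with edgeR adjusted p = 1.62e-05. CDCA8, the borealin subunit, fell by 0.54 (SE 0.0705). INCENP, the scaffold, was at 91.7 ± 12.3 CPM in WT and 88.7 ± 4.47 CPM in METTL3-KO cells, and BIRC5, survivin, at 19.0 ± 2.78 and 21.0 ± 2.31 CPM. Neither passed, and both overlapped between groups. AURKB relative to INCENP was 0.433 to 0.577 in WT and 0.259 to 0.306 in METTL3-KO samples. Relative to BIRC5 it was 2.36 to 2.85 in WT and 1.15 to 1.23 in METTL3-KO samples, so that within each library the kinase mRNA was lower in proportion to either partner.

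The NDC80 complex, which grips microtubules, has 4 subunits. SPC24 held 750, 592 and 516 counts in WT and 395, 270 and 368 in METTL3-KO samples, for a log2 fold change of -0.92 ± 0.105 (SE) with edgeR adjusted p = 6.60e-05. SPC25, its partner at the kinetochore end, held 448, 305 and 292 counts against 253, 179 and 210, a log2 fold change of -0.78 ± 0.109 (SE) with edgeR adjusted p = 0.000286. In CPM, 52.8% of the WT level was left for SPC24 and 58.5% for SPC25. At the microtubule end, NDC80 fell by 0.39 (SE 0.0764) and NUF2 had a log2 fold change of -0.26 (SE 0.0993, not passing). NUF2 passed without WT replicate 2, without WT replicate 3 and without both replicate 3 samples (log2 fold change -0.32 in the last). SPC24 relative to NUF2 was 0.818 to 0.993 in WT and 0.533 to 0.587 in METTL3-KO samples, and SPC25 relative to NUF2 was 0.463 to 0.512 and 0.335 to 0.359.

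CENPA, the histone variant that marks centromeres, had the smallest change of this step. It held 431, 315 and 324 counts in WT and 447, 328 and 378 in METTL3-KO samples, for a log2 fold change of 0.03 (SE 0.0928). CENPE, the kinetochore motor, had a log2 fold change of -0.13 (SE 0.125) and CENPF, a large coiled-coil protein, of -0.27 (SE 0.112), and neither passed. Without both replicate 3 samples CENPE changed sign, to 0.12, and CENPF was at -0.05.

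Of the 9 spindle genes 6 fell, and the median log2 fold change was -0.43. KIF11, the kinesin that pushes spindle poles apart, fell furthest of all 60 members. It lies on chromosome 10 of GRCh37 from 94333862 to 94415152 and held 2605, 1864 and 2344 counts in WT and 1345, 1032 and 1018 in METTL3-KO samples. Its level was 95.7 ± 13.7 and 44.9 ± 1.86 CPM (n = 3 each), a log2 fold change of -1.09 ± 0.101 (SE) with edgeR adjusted p = 1.53e-05. KIF15, a kinesin that can also drive pole separation, fell by 0.43 (SE 0.103) and did not pass without METTL3-KO replicate 2. DLGAP5, a microtubule-stabilizing protein, held 1348, 1057 and 1053 counts in WT and 897, 665 and 656 in METTL3-KO samples, a fall of 0.72 (SE 0.0761). HMMR, which binds spindle microtubules, held 1158, 876 and 885 counts against 777, 603 and 599, a fall of 0.64 (SE 0.0789). The METTL3-KO samples of these genes all lay below the WT samples.

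KIF2C, a kinesin that shortens microtubules, fell by 0.54 (SE 0.0748). TPX2, the activator of AURKA, fell from 322 ± 10.99 to 260 ± 12.5 CPM (n = 3 each; log2 fold change -0.30, SE 0.0693), and did not pass without METTL3-KO replicate 2. AURKA held 3750, 2987 and 2651 counts in WT and 3978, 2596 and 3129 in METTL3-KO samples, with overlapping groups (log2 fold change -0.04, SE 0.0761). KIF18A, which limits chromosome movement, had a log2 fold change of -0.07 (SE 0.0903). The level of KIF11 relative to AURKA was 0.624 to 0.884 in WT and 0.325 to 0.398 in METTL3-KO samples. ASPM, a spindle pole protein, was at 119 ± 33.1 CPM in WT and 88.2 ± 10.96 CPM in METTL3-KO cells and did not pass. It passed without WT replicate 1 and without WT replicate 2, and was at -0.09 on the log2 scale without both replicate 3 samples.

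In the midzone and cytokinesis step, 7 of 9 genes fell, with a median log2 fold change of -0.32. ECT2, the exchange factor that activates RhoA at the furrow, held 5468, 4314 and 5023 counts in WT and 4186, 2867 and 2842 in METTL3-KO samples, for a log2 fold change of -0.68 ± 0.0912 (SE) with edgeR adjusted p = 0.000204. ANLN, anillin, which scaffolds the contractile ring, held 3932, 3003 and 3669 counts against 2973, 2132 and 2053, a log2 fold change of -0.66 ± 0.0980 (SE) with edgeR adjusted p = 0.000399. PRC1, which bundles midzone microtubules, held 3762, 3165 and 3277 counts against 3055, 2186 and 2225, a fall of 0.54 (SE 0.0739). None of these overlapped between the groups.

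The centralspindlin genes RACGAP1 and KIF23 fell by 0.30 (SE 0.0685) and 0.28 (SE 0.0712), and KIF4A, the kinesin that works with PRC1, fell by 0.32 (SE 0.0718). KIF23 did not pass without METTL3-KO replicate 2. KIF20B fell by 0.35 (SE 0.117, edgeR adjusted p = 0.0434), and passed in only 1 of the 6 fits that left out a sample. It was at -0.15 without both replicate 3 samples. KIF20A, which carries the passenger complex to the midzone, had the smallest log2 fold change of the step, with 1841, 1590 and 1511 counts in WT and 2008, 1416 and 1446 in METTL3-KO samples (log2 fold change -0.11, SE 0.0718, not passing, and -0.07 without both replicate 3 samples). KIF14, a kinesin of the midbody, had a log2 fold change of -0.21 (SE 0.149) that changed sign to 0.11 without both replicate 3 samples.

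Of the 7 chromosome structure genes 4 fell, with a median log2 fold change of -0.50. TOP2A, the topoisomerase that untangles sister chromatids, held 13652, 10489 and 12372 counts in WT and 8288, 6377 and 5800 in METTL3-KO samples. Its level was 514 ± 59.8 CPM in WT and 271 ± 22.1 CPM in METTL3-KO cells (n = 3 each), a log2 fold change of -0.93 ± 0.0936 (SE) with edgeR adjusted p = 2.94e-05. It had the largest drop in CPM among the members. Of the condensin genes, SMC2 held 1656, 1209 and 1567 counts against 1261, 865 and 899 (log2 fold change -0.65, SE 0.108, edgeR adjusted p = 0.000878), and NCAPH held 1262, 965 and 985 against 913, 699 and 680 (log2 fold change -0.57, SE 0.0785, edgeR adjusted p = 0.000252). NCAPG fell by 0.50 (SE 0.0928). SMC4 had a log2 fold change of -0.32 (SE 0.133) and did not pass, and it was at -0.04 without both replicate 3 samples. NCAPD2, another condensin I subunit, had the smallest log2 fold change of the step, with 5320, 4292 and 4442 counts in WT and 5480, 3948 and 4240 in METTL3-KO samples (log2 fold change -0.13, SE 0.0683, not passing). TOP2A relative to NCAPD2 was 2.44 to 2.79 in WT and 1.37 to 1.62 in METTL3-KO samples.

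MKI67, the source of the Ki-67 proliferation antigen, had the highest count of the members in WT replicate 3 and in every METTL3-KO sample. TOP2A had the highest count in WT replicates 1 and 2. MKI67 held 12901, 9994 and 14711 counts in WT and 13355, 9016 and 8030 in METTL3-KO samples, and the groups overlapped (534 ± 136 and 398 ± 51.8 CPM, n = 3 each). Its log2 fold change of -0.42 (SE 0.149) did not pass (edgeR adjusted p = 0.0565). Without both replicate 3 samples it was -0.10, and it then passed.

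The transcription factor genes that act on this program did not pass. FOXM1 held 2240, 1650 and 1897 counts in WT and 2186, 1484 and 1643 in METTL3-KO samples, 86.2% of the WT level in CPM (log2 fold change -0.21, SE 0.0842, edgeR adjusted p = 0.0837). MYBL2, B-Myb, held 3803, 2828 and 2881 counts against 3730, 2628 and 3002, with 133 ± 6.97 and 124 ± 4.04 CPM and overlapping groups (log2 fold change -0.10, SE 0.0717, edgeR adjusted p = 0.323). Without both replicate 3 samples FOXM1 had a log2 fold change of -0.14 and MYBL2 of -0.12, and both then passed, FOXM1 with a smaller change than with all samples.

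The replicate 3 samples differed from their replicates by transcript length. Across 10071 genes, Spearman's rho of a sample's deviation from its group mean with transcript length was 0.66 in WT replicate 3 and -0.60 in METTL3-KO replicate 3. In replicates 1 and 2 rho was -0.60 and -0.55 for WT and 0.50 and 0.42 for METTL3-KO. The 4 members with the longest transcripts, MKI67, ASPM, CENPF and CENPE, had log2 fold changes from -0.43 to -0.13 with all samples and from -0.10 to 0.12 without both replicate 3 samples. BUB3, the next longest, was at -0.56 and -0.55, and KIF14 after it at -0.21 and 0.11. The log2 fold changes of the 5 shortest members all moved down without these samples. UBE2C was at -0.74 and -0.86, PTTG1 at -0.40 and -0.60, AURKB at -0.92 and -1.02, SPC25 at -0.78 and -0.86, and CENPA at 0.03 and -0.0028. CENPA did not pass in either fit. The part of transcript length in these values was not tested. KIF11, TOP2A, CDC25C and AURKB were at -0.96, -0.77, -0.99 and -1.02 without both replicate 3 samples and passed in all 6 fits that left out 1 sample. With a correction of every library for length and GC content of transcripts, 48 of 60 members were lower and 0 higher, against 16.8% of all genes lower, and the median log2 fold change was -0.42. In that fit of all 6 samples, MKI67, ASPM and CENPF were at -0.46, -0.43 and -0.29 and passed. CENPE and KIF14 were at -0.12 and -0.20 and did not pass.

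**Figure D3:**
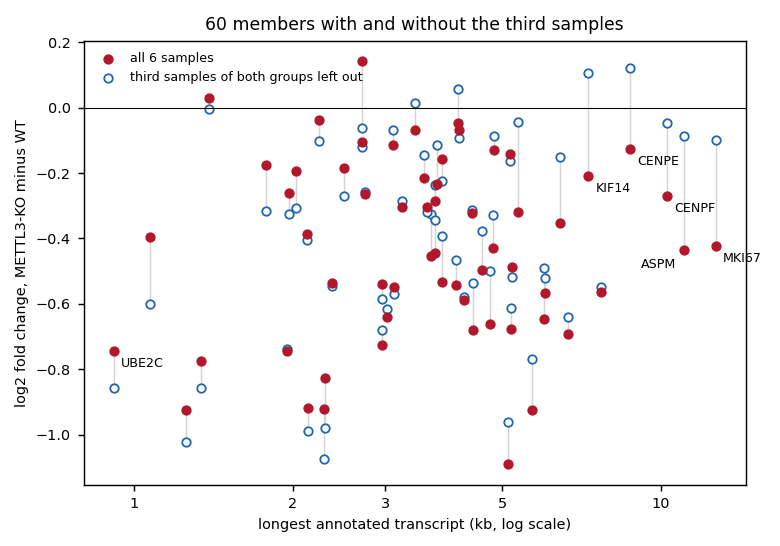
Each of the 60 genes is drawn at the length of its longest annotated transcript (log axis, kb), with the log2 fold change from all 6 samples (red, filled) joined to that without both replicate 3 samples (blue, open). The open points of MKI67, ASPM, CENPF, CENPE and KIF14 lie from -0.10 to 0.12, above their filled points, and that of UBE2C lies below.

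The further genes of the pathway, from lists written down beside the members, gave the setting of these values. Beside the counts of each list stand the shares of all tested genes, 13.2% called lower and 13.3% higher. Among tested genes at least as abundant as the lowest member, 20.5% were called lower and 20.5% higher. Of 31 other mitotic genes 22 fell and 1 rose, with a median log2 fold change of -0.43. PSRC1, which binds spindle microtubules, fell by 1.06 (SE 0.0865), with 1639, 1398 and 1134 counts in WT and 816, 591 and 704 in METTL3-KO samples. MASTL, the Greatwall kinase that protects CDK1 phosphorylation, fell by 0.98 (SE 0.0947), with 787, 650 and 652 counts in WT and 457, 355 and 310 in METTL3-KO samples. Neither overlapped between the groups. Of 33 further kinetochore genes 19 fell and 3 rose, with a median of -0.47. CENPT, which bridges centromere and NDC80 complex, fell by 0.96 (SE 0.119), with 899, 756 and 564 counts in WT and 475, 304 and 426 in METTL3-KO samples. OIP5, which helps to load CENPA, fell by 0.89 (SE 0.105), with 455, 371 and 331 counts in WT and 288, 170 and 209 in METTL3-KO samples. ZW10 rose by 0.61 (SE 0.0857). In the 16 genes of the anaphase-promoting complex and its regulators the median was -0.11, with 4 lower (25%) and 1 higher (6.25%). FBXO5, its inhibitor EMI1, fell by 0.70 (SE 0.0842), with 825, 629 and 623 counts in WT and 516, 416 and 411 in METTL3-KO samples. The subunit ANAPC11 fell by 0.38 (SE 0.120), with 1384, 1148 and 815 counts in WT and 1037, 709 and 957 in METTL3-KO samples, and its groups overlapped in CPM.

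Among 16 further cohesin and condensin genes 5 fell (31.25%) and 1 rose (6.25%), with a median of -0.05. The condensin II genes NCAPG2 and NCAPH2 fell by 0.63 (SE 0.110) and 0.59 (SE 0.0809). NCAPG2 held 2681, 1864 and 2447 counts in WT and 2048, 1388 and 1395 in METTL3-KO samples. NCAPH2 held 1076, 843 and 755 counts in WT and 743, 521 and 608 in METTL3-KO samples. Of 13 genes of the MuvB and DREAM complexes and the p53 arm, 4 fell (30.8%) and 3 rose (23.1%). RBL1, a pocket protein, fell by 0.88 (SE 0.128), with 516, 443 and 554 counts in WT and 375, 254 and 252 in METTL3-KO samples. CDKN1A, the CDK inhibitor p21, rose by 0.83 (SE 0.113), with 435, 307 and 299 counts in WT and 661, 621 and 646 in METTL3-KO samples, and all METTL3-KO samples lay above the WT samples. In 41 S-phase genes, such as those of the replicative helicase and nucleotide supply, 31 fell and 0 rose, with a median of -0.49. TYMS, thymidylate synthase, fell by 1.02 (SE 0.1002), with 737, 538 and 582 counts in WT and 407, 295 and 268 in METTL3-KO samples. LIG1, the DNA ligase of lagging strands, fell by 0.85 (SE 0.0724), with 2548, 1901 and 1872 counts in WT and 1462, 1068 and 1160 in METTL3-KO samples. The S-phase and mitotic lists thus stood side by side, with 75.6% of S-phase genes and 61.7% of the 60 members called lower. The difference between the lists was not tested.

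**Figure D4:**
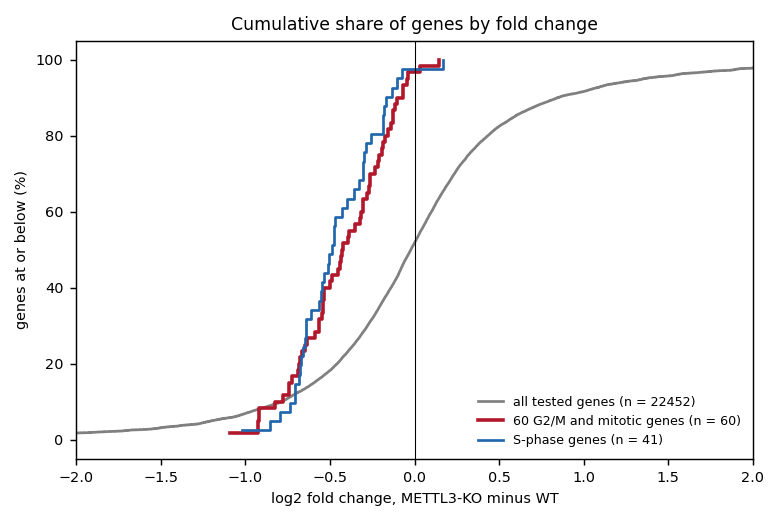
Lines give the percentage of genes at or below each log2 fold change, METTL3-KO minus WT, for all 22452 tested genes (grey), the 60 G2/M and mitotic genes (red) and 41 S-phase genes (blue). The red and blue lines lie left of the grey one over most of their range, with medians of -0.43 and -0.49 against -0.02.

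Some members share bases with another gene in the GENCODE annotation, and the strand setting of the counting is not given in the sources used here. At least 10% of the exon bases were shared in 6 members. These were PRC1 (57.6% with an overlapping gene record of the same strand and 34.3% with PRC1-AS1), NCAPG (33.7% with LCORL), PKMYT1 (24.7% with PAQR4), SMC4 (19.0% with TRIM59), FOXM1 (15.9% with ITFG2) and PLK1 (11.6% with an antisense RNA). Their counts may depend on how reads in the overlap were assigned. The authors counted with another annotation, and whether it held these overlapping records was not checked.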

How the data were processed

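RNA-seq libraries of 3 WT and 3 METTL3-KO HCT116 samples, grouped by their titles, were analysed. The authors aligned paired-end reads to hg19 with TopHat 2.0.11 (version also in the submitters' processing notes) and an Ensembl GRCh37 index, then ran htseq-count (union mode). They deposited unnormalized counts of 56638 symbols. Counters of unassigned reads, 28.2% to 30.7% of all records, were left out.

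A gene was kept if either condition had at least 5 counts in total, which kept 22452. METTL3-KO was compared with WT by edgeR's quasi-likelihood test (edgeR 4.0.16, R 4.3.3, TMM, two-sided, Benjamini-Hochberg over all tested genes). The SE is the log2 fold change divided by the square root of F, and CPM uses TMM-scaled totals. Gene models were GENCODE v44lift37 on GRCh37, and 35800 symbols matched. Alternatives were DESeq2 1.42.0, RLE factors, 2 other filters, a replicate block, a length and GC correction (splines with 5 degrees of freedom, genes over a mean log2 CPM of 3), and left-out samples. Procedures were tested on simulated data.

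Members, steps and gene lists were chosen with earlier results of these data known. Every member was named. Counts per sample were given for the 3 largest called changes and the smallest change of each step, FOXM1, MYBL2 and METTL3; MKI67 was added after its values were seen, and from each further list the 2 called genes with the largest change were named (ZW10 was added likewise). Motif words and printed promoters were chosen after the fold changes were seen. Depth was 20936091 to 30142144 counts per sample, and the 3 samples a group also limit the precision.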

Additional observations from a re-analysis of the deposited data

How the results depend on the processing

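The number of members lower stayed between 30 (replicate block) and 48 (length and GC correction) in every alternative, with 0 higher in each. It ran from 31 to 40 with each sample left out. Of the 37 called members 29 kept their call in all 14 alternatives, and CCNA2, PTTG1, TPX2, KIF15, KIF4A, KIF20B, KIF23 and RACGAP1 did not. Deviations of same-numbered samples from their group means correlated at -0.59, -0.40 and -0.79. Between differently numbered samples the values ran from -0.55 (WT 2 with METTL3-KO 1) to 0.72 (WT 1 with METTL3-KO 3). Replicate 3 stood apart in each group, so these values cannot decide whether the replicate numbers pair the samples. With the replicate block 1719 genes were lower and 1810 higher in all, against 2959 and 2986 without it, and the further lists had 3 genes higher in place of 9. Without both replicate 3 samples 4823 genes were lower and 4555 higher, the further lists had 18 genes higher, and the medians were -0.33 for the members, -0.48 for the cyclin and kinase step and -0.33 for the spindle step. With 1 sample left out, all genes lower ran from 1976 to 3793 and higher from 2188 to 3809. The further lists then had 5 to 12 genes higher. The median of the members ran from -0.48 to -0.36, of the cyclin and kinase step from -0.59 to -0.49, and of the spindle step from -0.53 to -0.34. Some values near 0 changed sign. Without both replicate 3 samples CENPA was -0.0028, CENPE 0.12, BIRC5 -0.063, INCENP 0.058, KIF18A 0.014, KIF14 0.11 and the median of further cohesin and condensin genes 0.052. With 1 sample left out, CENPA ran from -0.0074 to 0.069, CENPE from -0.20 to 0.049, INCENP from -0.11 to 0.067, KIF18A from -0.11 to 0.022, AURKA from -0.070 to 0.019 and that median from -0.10 to 0.035. WT replicate 3 decided the sign for CENPE, INCENP, KIF18A and that median, METTL3-KO replicate 2 for AURKA, and WT replicate 2 or METTL3-KO replicate 3 for CENPA. The cause of these moves was not tested.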
